A study of Mus musculus with 4 samples.

Results

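The MyD88, IRAK, TRAF6 and TAB adaptors form the first relay between IL-1 and Toll-like receptors and the kinases of the inflammatory response. The 10 genes examined were *Myd88*, *Irak1*, *Irak2*, *Irak3*, *Irak4*, *Traf6*, *Tab1*, *Tab2*, *Tab3* and *Peli1*, chosen by their gene names in a table of 55356 genes. All 10 were found, and 9 of them reached a mean normalized count of at least 10 over the libraries, as did 12483 genes of the whole table. The gene that did not was *Irak3*.

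RNA was sequenced from 4 cultures of immortalized bone marrow-derived macrophages (BMDMs), with 1 library for each condition. All of the cells came from *MK2*-KO mice, which lack the p38-activated protein kinase MK2 (gene *Mapkapk2*). They had been transduced with a virus and sorted for GFP. The i*MK2*-KO +*GFP* cells received the empty vector and the i*MK2*-KO +*MK2* cells received *MK2*. The labels give the latter the genotype wt. The lines are called control and rescued cells, respectively. Each line was left untreated (UT) or was treated with IL-1α at 5 ng/mL for 1 h. Each genotype is a single transduced line, so MK2 and the line cannot be told apart, and no wild-type mouse is among the libraries.

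With 1 library for each condition, replicates are lacking, and p-values are not given. Normalized counts summed to between 24891906 and 25733071 in a library. *Mapkapk2* had normalized counts of 561 and 1585 in control cells without and with IL-1α, against 38357 and 38141 in rescued cells, in the direction of the labels. All 10 macrophage markers were present, with sums over the list of between 123787 and 138754 in a library, and the markers of other blood, epithelial, connective tissue and endothelial cells summed to at most 3, with 8 of 10 at 0 in every library. Between the lines, 1 macrophage marker was at least 1.5-fold higher and 3 were lower in control cells, both untreated and after IL-1α. Among the 12483 genes with a mean of at least 10, 7.33% were higher and 10.3% lower untreated, and 8.41% and 11.2% after IL-1α. *Cd14*, a co-receptor of Toll-like receptors, had 3652 and 8072 normalized counts in control cells without and with IL-1α against 1962 and 2250 in rescued cells. *Mertk*, a receptor for dying cells, had 421 and 364 against 1093 and 1168, *Adgre1* 3978 and 4140 against 6832 and 6330, and *Fcgr1* 1226 and 1194 against 2108 and 2216. The part of such differences between the lines in the values below was not tested. In bulk RNA, fewer cells that express a gene and less RNA per cell cannot be told apart.

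When IL-1 or a Toll-like receptor ligand binds, the receptor recruits MyD88, which assembles with IRAK4 and then with IRAK1 or IRAK2 into a helical complex called the Myddosome. The IRAKs engage TRAF6, a ubiquitin ligase whose chains are bound by TAB2 and TAB3, and these bring in the kinase TAK1 together with its activator TAB1. TAK1 then activates the IκB kinases and the p38 and JNK pathways, and p38 in turn activates MK2. IRAK-M, the product of *Irak3*, restrains the Myddosome in macrophages, and Pellino 1, the product of *Peli1*, is a ubiquitin ligase that acts on IRAKs and other signaling proteins.

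Between the lines, *Traf6*, *Irak1* and *Irak2* were higher in control than in rescued cells, *Peli1* was lower, and *Irak4* and *Tab1* lay within counting error. After 1 h of IL-1α, *Irak2* in control cells, at 1.52-fold, was the 1 adaptor past 1.5-fold, where 4.7% of all tested genes were higher and 4.29% lower, and this count became 0 under 3 of 4 other scalings of the libraries. In rescued cells 0 adaptors passed that fold, as 5.64% of all tested genes did. Every difference is given as the log2 ratio of 2 libraries after adding 1 to each normalized count. Its 95% counting interval is exact (Clopper-Pearson), takes the normalized counts as reads and covers counting error only, not the variation between cultures. A ratio whose interval excludes 0 is called beyond counting error. Such calls come more readily at high counts. The 9 measured adaptors had mean normalized counts of 470 to 3271, whereas the tested genes start at a mean of 10. The shares of all tested genes beyond counting error are therefore not matched to the adaptors in depth.

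Levels of different genes were compared per kilobase of exon. *Myd88* was the most abundant, with a mean over the 4 libraries of 1269.8 normalized counts per kilobase. *Irak1* and *Tab2* followed with means of 579 and 529.9 normalized counts per kilobase, and *Traf6* and *Tab1* with 286 and 224. *Irak2*, *Peli1*, *Irak4* and *Tab3* lay lower, at means of 147, 133, 128 and 70.8 normalized counts per kilobase. *Irak3* stood at the bottom with 0.272. These per-kilobase levels use the union of annotated exons, so that a gene with a long unused exon appears lower than its transcripts are. Neighbors in this order such as *Irak1* and *Tab2*, and *Peli1* and *Irak4*, exchanged places between libraries.

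**Figure D1:**
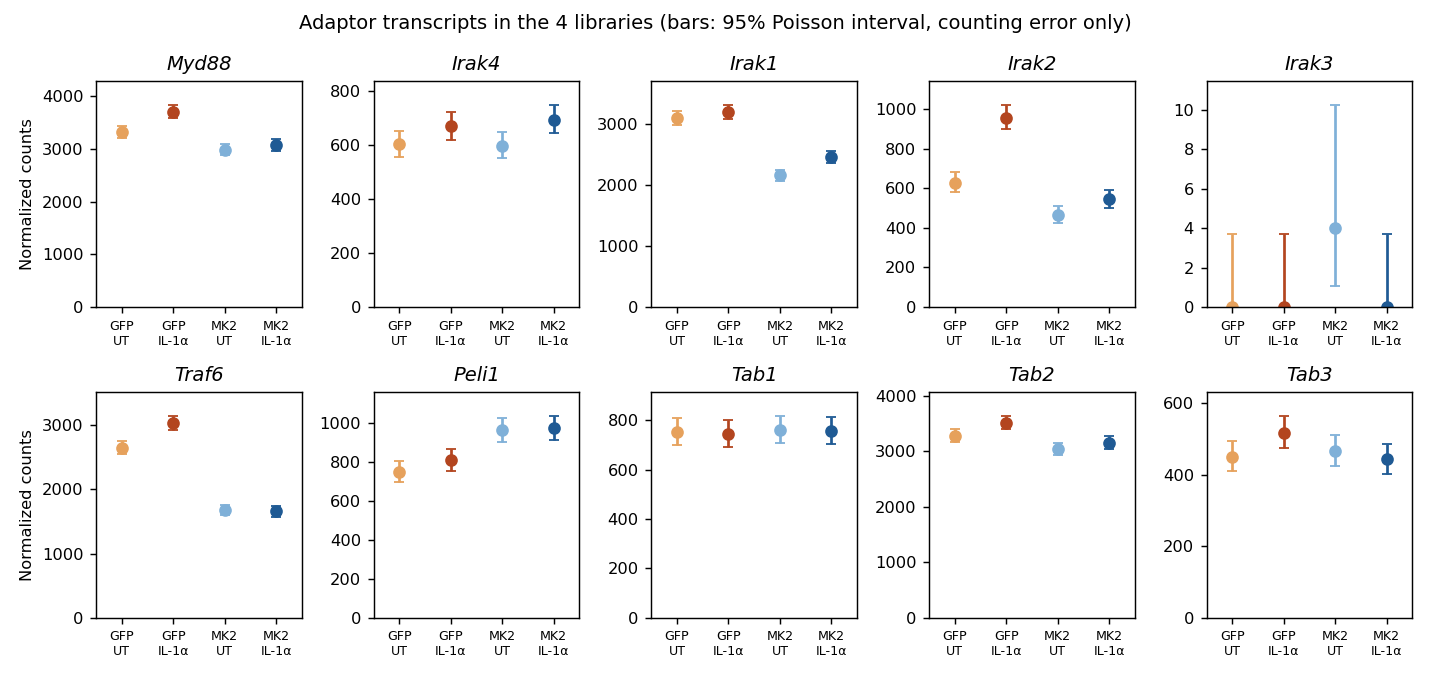
Normalized counts (y axis, linear from 0, a separate scale for each gene) of the 10 adaptor genes in the 4 libraries (x axis: control (GFP) or rescued (MK2) line, and treatment), where points are single libraries and bars are 95% Poisson intervals of the counting error. *Traf6*, *Irak1* and *Irak2* are higher in both control libraries than in both rescued libraries, and *Irak3* is at 0 in 3 of the 4.

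*Myd88* (ENSMUSG00000032508.9, chromosome 9, positions 119165000 to 119170477 in the deposited table) encodes the adaptor that binds the activated receptor. It had 3321 normalized counts in untreated and 3706 in IL-1α-treated control cells, and 2984 and 3073 in rescued cells. Both libraries of the first line lay above both of the second. The log2 ratio of control to rescued cells was 0.15 (0.08 to 0.23) untreated and 0.27 (0.20 to 0.34) after IL-1α. *Myd88* shares 1736 bases with *Acaa1a*, a peroxisomal enzyme gene, which had between 3878 and 4234 normalized counts, and reads in that stretch may belong to either gene where strand was not used in the counting.

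*Irak4* (ENSMUSG00000059883.17, chromosome 15, 94441524 to 94479696) encodes the kinase that joins MyD88 first. Its normalized counts were 603 and 668 in control cells and 597 and 693 in rescued cells, and the libraries of the lines overlapped. The log2 ratio of the lines was 0.01 (-0.15 to 0.18) untreated and -0.05 (-0.21 to 0.10) after IL-1α, so any difference beyond counting error was not detectable at this depth. It shares 3865 bases with *Twf1*, an actin regulator gene. *Twf1* had 1509 and 1757 normalized counts in control cells and 2136 and 2042 in rescued cells. Here, too, shared reads may belong to either gene where strand was not used in the counting.

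*Irak1* (ENSMUSG00000031392.19, chromosome X, 73057520 to 73067524) encodes a kinase that IRAK4 phosphorylates and that hands the signal to TRAF6. Its normalized counts were 3103 and 3203 in control cells and 2163 and 2459 in rescued cells. The lines did not overlap, and the gap was larger before treatment. The log2 ratio of the lines was 0.52 (0.44 to 0.60), or 1.43-fold, untreated, and 0.38 (0.31 to 0.46), or 1.30-fold, after IL-1α. The *Irak1* ratio lay above those of 91.5% of the tested genes untreated and 85.6% after IL-1α.

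*Irak2* (ENSMUSG00000060477.15, chromosome 6, 113615428 to 113671987) encodes the IRAK that sustains later signaling in mouse macrophages. Its normalized counts were 628 and 956 in control cells and 466 and 545 in rescued cells. The IL-1α-treated control library stood highest by a wide margin, and the others followed more closely. The log2 ratio of the lines was 0.43 (0.26 to 0.61) untreated and 0.81 (0.66 to 0.97), or 1.75-fold, after IL-1α. *Irak2* had the widest span over the libraries of the 9 measured adaptors, 2.05-fold from lowest to highest.

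*Irak3* (ENSMUSG00000020227.11, chromosome 10, 119977553 to 120038035), the inhibitory member of the family, was at 0 in both control libraries and in IL-1α-treated rescued cells, and at 4 normalized counts in untreated rescued cells. The 95% Poisson interval of each 0 reaches 3.69 and that of the 4 runs from 1.09 to 10.2, so that they overlap and no fold is given. *Irak3* shares 541 bases with *Tmbim4*, which had between 907 and 998 normalized counts. IRAK-M transcripts were therefore at or near the limit of detection in these cells, whereas each of the other adaptors had at least 443 normalized counts in every library.

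*Traf6* (ENSMUSG00000027164.9, chromosome 2, 101508774 to 101532014) showed the widest gap between the lines. It had 2651 and 3036 normalized counts in control cells without and with IL-1α, and 1677 and 1657 in rescued cells. Both libraries of the first line lay far above both of the second. The log2 ratio of the lines was 0.66 (0.57 to 0.75), or 1.58-fold, untreated, and 0.87 (0.79 to 0.96), or 1.83-fold, after IL-1α. It lay above the ratios of 93.8% and 95.1% of the tested genes. No annotated gene of the table overlaps *Traf6*, and the 3 measured genes within 500 kb of it, *Iftap*, *Commd9* and *Ldlrad3*, had a median log2 ratio of 0.02 untreated and -0.02 after IL-1α. Such medians were 0.17 and 0.26 over 29 neighbors of *Irak1*, and 0.04 and 0.12 over 19 neighbors of *Irak2*. For *Myd88* they were 0.18 and -0.35 (10 neighbors), and for *Peli1* 0.19 and 0.23 (7 neighbors). The part of the surrounding region in the adaptor ratios was not tested.

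*Peli1* (ENSMUSG00000020134.14, chromosome 11, 21041291 to 21100323) lay on the other side. Its normalized counts were 748 and 810 in control cells and 962 and 972 in rescued cells. Both libraries of the first line were below both of the second. The log2 ratio of the lines was -0.36 (-0.50 to -0.22) untreated and -0.26 (-0.40 to -0.13) after IL-1α. *Peli1* was the 1 adaptor that was lower in control cells beyond counting error.

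The TAB genes differed less. *Tab1* (ENSMUSG00000022414.9, chromosome 15, 80017328 to 80045908), the activator of TAK1, had 753 and 744 normalized counts in control cells and 761 and 757 in rescued cells. These 4 values lay within 1.02-fold of each other, and each *Tab1* ratio lay within counting error. *Tab2* (ENSMUSG00000015755.17, chromosome 10, 7781417 to 7831994), which binds ubiquitin chains, had 3280 and 3520 against 3044 and 3159 normalized counts, and its log2 ratio of the lines was 0.11 (0.04 to 0.18) untreated and 0.16 (0.09 to 0.23) after IL-1α. Its paralog *Tab3* (ENSMUSG00000035476.10, chromosome X, 84617628 to 84678075) had 451 and 518 against 467 and 443 normalized counts. The lines overlapped for *Tab3*, with a log2 ratio of -0.05 (-0.24 to 0.14) untreated and 0.23 (0.04 to 0.41) after IL-1α.

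**Figure D2:**
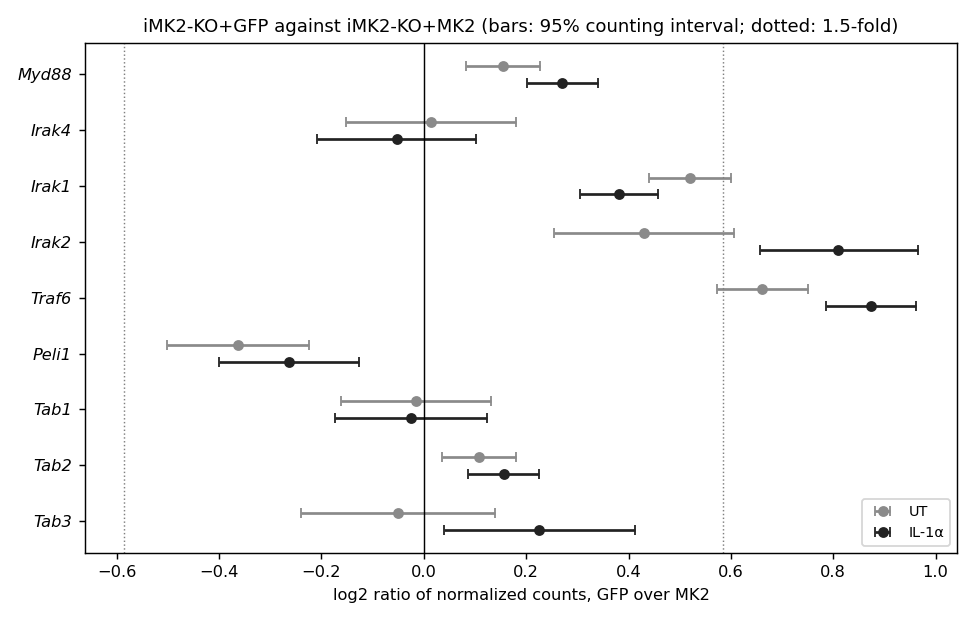
Log2 ratio of normalized counts in control (GFP) over rescued (MK2) cells (x axis) for the 9 measured adaptors (y axis), untreated in grey and after IL-1α in black, with 95% counting intervals as bars and 1.5-fold as dotted lines. *Traf6* lies past 1.5-fold at 0.66 and 0.87, *Irak2* at 0.81 after IL-1α, and *Peli1* lies to the left of 0 in both.

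Set against all tested genes, few adaptors stood far out. Untreated, 1 adaptor (*Traf6*) was at least 1.5-fold higher in control cells, as were 7.33% of all tested genes, and 0 were 1.5-fold lower, against 10.3% of all. Of the genes with a mean of at least 50, 12.4% passed 1.5-fold in either direction. Beyond counting error, 5 of the 9 measured adaptors were higher and 1 was lower, against 30.8% and 26.9% of all tested genes, not matched for depth. The 5 were *Traf6*, *Irak1*, *Irak2*, *Myd88* and *Tab2*, of which *Tab2* fell within counting error with scaling to *Gapdh* or the upper quartile. The median log2 ratio of the 9 adaptors was 0.11, beside 0.02 over all tested genes, and became 0.05 with scaling to *Gapdh* and 0.06 with scaling to the upper quartile.

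After IL-1α, 2 adaptors (*Traf6* and *Irak2*) were at least 1.5-fold higher in control cells and 0 lower, against 8.41% and 11.2% of all tested genes. Of the genes with a mean of at least 50, 14.3% passed 1.5-fold in either direction. *Tab3* joined the adaptors that were higher beyond counting error, which made 6 higher and 1 lower, against 33.7% and 26.3% of all. *Tab3* fell within counting error with scaling to *Gapdh* or the upper quartile or with the reads taken as 0.5 of the values, and *Tab2* with scaling to *Gapdh*. The median log2 ratio of the 9 adaptors was 0.23, beside 0.03 over all tested genes, and became 0.12 with scaling to *Gapdh*. With *Irak3* included and values below a floor of 3 counts set to it, the median over all 10 was 0.06 untreated and 0.19 after IL-1α.

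**Figure D3:**
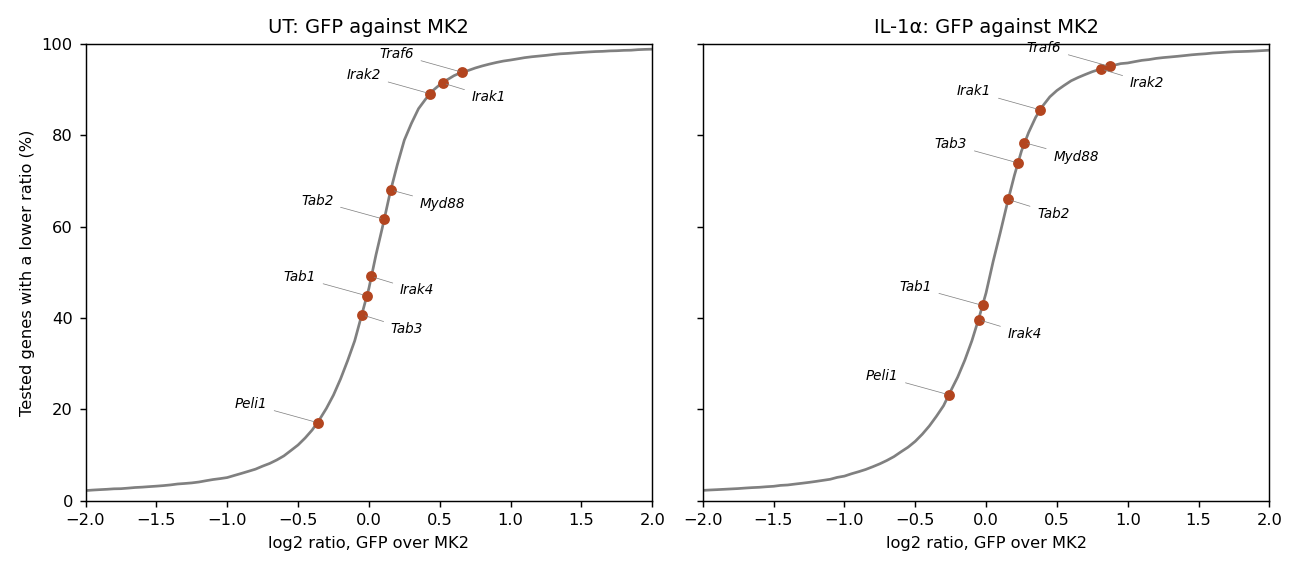
Cumulative share of the 12483 tested genes (y axis, %) with a log2 ratio of control (GFP) over rescued (MK2) cells below a given value (x axis, shown from -2 to 2), untreated on the left and after IL-1α on the right, with the 9 measured adaptors as points. *Traf6* sits above 93.8% and 95.1% of the tested genes, whereas *Tab1* and *Irak4* sit near the middle.

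*Traf6* and *Irak1* are textbook targets of miR-146, a microRNA that NF-κB induces and that limits signaling through the Myddosome. MicroRNAs bind mRNAs mainly through their seed, bases 2 to 8, and both mature mouse forms carry the same seed. They are printed from RefSeq (GRCm38.p6), where miR-146a-5p lies at chr11:43374435-43374456 on the minus strand and miR-146b-5p at chr19:46342790-46342811 on the plus strand, with the seed in capitals.
miR-146a-5p: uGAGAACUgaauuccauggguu
miR-146b-5p: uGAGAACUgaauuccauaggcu

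The complement of this seed, AGTTCTC, was searched in the 3′ UTR of 1 transcript for each gene (GENCODE M21, GRCm38), on the strand of the transcript. This search was chosen after the values above had been seen. It was found 4 times in *Traf6*, whose 3′ UTR has 4170 bases, 2 times in *Irak1* (1526 bases), 2 times in *Irak2* (1246 bases), and 0 times in the other 7 adaptors. Over 21014 genes with a 3′ UTR, 11.2% held at least 1 match, 1.40% at least 2 and 0.0619% at least 4. Of the 10715 tested genes with a 3′ UTR, 12.5% held at least 1 match and 1.63% at least 2. None of these shares is matched to the adaptors in 3′ UTR length. The sites are printed in the sense of the transcript, with the match in capitals, because the 3 genes that hold them are the 3 with the widest gap between the lines.
*Traf6*, chr2:101697959-101697965: accgctctggtgttgAGTTCTCa
*Traf6*, chr2:101698023-101698029: tccctggaaggcttaAGTTCTCa
*Traf6*, chr2:101698835-101698841: agtactttggagtctAGTTCTCa
*Traf6*, chr2:101701359-101701365: ggactttgctactgcAGTTCTCa
*Irak1*, chrX:74015394-74015400, minus strand: agactcagaggtcaaAGTTCTCa
*Irak1*, chrX:74015378-74015384, minus strand: gttctcatgcttggaAGTTCTCa
*Irak2*, chr6:113694133-113694139: gcccccaaacctcttAGTTCTCc
*Irak2*, chr6:113694266-113694272: gccggtgtctccgcaAGTTCTCa

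Except for the first *Irak2* site, each match is followed by an A. A match is a description of letters and not a binding event. The hairpin genes *Mir146* and *Mir146b* were at 0 in all 4 libraries, and mature microRNAs are too short to be counted by such libraries, so the level of miR-146 is not known here. Over all 1339 tested genes with at least 1 match, the median log2 ratio of the lines was 0.02 untreated and 0.02 after IL-1α, beside 0.03 and 0.04 over the 9376 tested genes without one. For the 175 tested genes with at least 2 matches, the medians were 0.04 and 0.02. The part of miR-146 in the differences of *Traf6*, *Irak1* and *Irak2* was not tested.

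The promoters of the same 3 genes are printed from RefSeq (GRCm38.p6) as the 250 bases before the annotated start, in the sense of the gene, since these genes were higher together. Capitals mark matches to GGGNNNNNCC, a loose form of the NF-κB motif, on either strand, and overlapping matches run together.
*Traf6*, chr2:101678170-101678419, plus strand: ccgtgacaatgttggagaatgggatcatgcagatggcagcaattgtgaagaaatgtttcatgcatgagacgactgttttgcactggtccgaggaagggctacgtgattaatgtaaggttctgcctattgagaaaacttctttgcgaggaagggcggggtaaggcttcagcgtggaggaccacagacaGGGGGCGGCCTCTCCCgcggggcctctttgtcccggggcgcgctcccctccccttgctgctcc
*Irak1*, chrX:74023919-74024168, minus strand: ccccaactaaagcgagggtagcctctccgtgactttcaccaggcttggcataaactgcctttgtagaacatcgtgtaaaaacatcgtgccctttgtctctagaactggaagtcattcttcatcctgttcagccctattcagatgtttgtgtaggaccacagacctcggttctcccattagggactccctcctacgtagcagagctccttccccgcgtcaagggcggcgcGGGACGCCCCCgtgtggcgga
*Irak2*, chr6:113638217-113638466, plus strand: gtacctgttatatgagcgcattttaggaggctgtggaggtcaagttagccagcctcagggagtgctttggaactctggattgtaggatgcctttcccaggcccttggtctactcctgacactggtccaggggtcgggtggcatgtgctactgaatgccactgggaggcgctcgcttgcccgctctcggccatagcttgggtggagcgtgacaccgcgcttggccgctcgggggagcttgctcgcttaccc

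The *Traf6* and *Irak1* windows held 2 overlapping matches each, at positions 188 and 194 and at positions 230 and 231 of the printed sequence, and the *Irak2* window held 0. RefSeq windows were found for 9 of the 10 adaptors, 12 in all, and 7 of these, from 6 adaptors, held a match. Among all 32851 windows of this length 45.8% held one, so that a match sets no gene apart. The AP-1 motif TGANTCA was in 0 of the 12 windows and in 6.75% of all. These searches, too, were chosen with the values known.

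IL-1α was given for 1 h, an early time at which the known immediate targets of NF-κB are near their peak. In control cells, *Irak2* went from 628 to 956 normalized counts, a log2 ratio of 0.61 (0.46 to 0.75) or 1.52-fold. This count of 1 adaptor past 1.5-fold stood against 4.7% of all tested genes higher and 4.29% lower, and it became 0 when the libraries were scaled to equal totals, to *Gapdh* or to the upper quartile. Beyond counting error, 5 of the 9 adaptors were higher after IL-1α and 0 were lower, against 20.0% and 12.3% of all tested genes, again not matched for depth. Besides *Irak2*, these were *Tab3* with a log2 ratio of 0.20 (0.01 to 0.39), *Traf6* with 0.20 (0.12 to 0.27), *Myd88* with 0.16 (0.09 to 0.23) and *Tab2* with 0.10 (0.03 to 0.17). *Tab2* and *Tab3* fell within counting error with scaling to totals, *Gapdh* or the upper quartile, which left 3. The median over the 9 adaptors was 0.15, beside 0.01 over all tested genes, and became 0.10 with scaling to totals or to *Gapdh*.

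In rescued cells, 0 adaptors passed 1.5-fold in either direction, against 5.64% of all tested genes and 1.58% of the genes with a mean of at least 50, a level that each measured adaptor reached. Beyond counting error 3 were higher, all of them IRAKs, and 0 were lower, against 11.4% and 8.23% of all. *Irak2* had a log2 ratio of 0.23 (0.04 to 0.41), *Irak4* of 0.21 (0.06 to 0.38) and *Irak1* of 0.18 (0.10 to 0.27). With the reads taken as 0.5 of the values, *Irak2* and *Irak4* fell within counting error, and 1 adaptor was left. The median over the 9 adaptors was 0.04, beside 0.01 over all tested genes, and became 0.013 with scaling to the upper quartile. *Traf6*, the adaptor with the widest gap between the lines, had a log2 ratio of -0.02 (-0.12 to 0.08) here.

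The difference of the log2 responses, control minus rescued, uses all 4 libraries, and its interval is a normal approximation of the counting error. It was 0.38 (0.15 to 0.61) for *Irak2*, 0.28 (0.01 to 0.54) for *Tab3*, 0.21 (0.09 to 0.34) for *Traf6* and 0.12 (0.02 to 0.22) for *Myd88*. *Irak1* went the other way, with a difference of -0.14 (-0.25 to -0.03). *Tab3* and *Myd88* fell within counting error with scaling to totals (0.24 and 0.08) or to *Gapdh* (0.23 and 0.07), and *Tab3*, *Myd88* and *Irak1* did so with the reads taken as 0.5 of the values. The remaining adaptors *Irak4*, *Peli1*, *Tab1* and *Tab2* lay within counting error. The share of all tested genes beyond counting error was not computed for this difference, so these calls have no background beside them. No adaptor differed by 1.5-fold in its response (0 of 9), against 12.6% of all tested genes and 6.42% of those with a mean of at least 50.

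**Figure D4:**
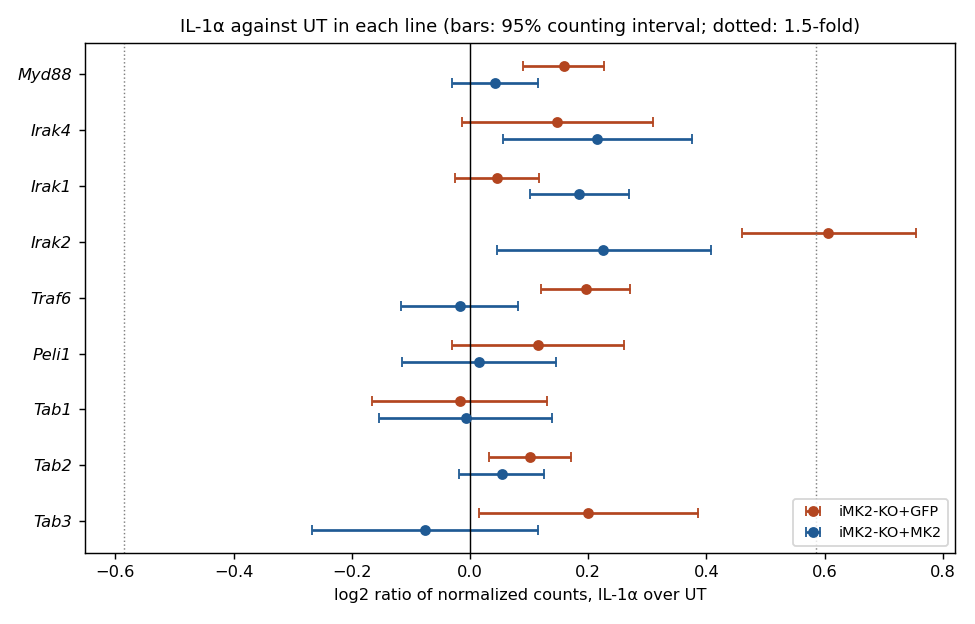
Log2 ratio of normalized counts after IL-1α over untreated (x axis) for the 9 measured adaptors (y axis) in control cells (+GFP, red) and rescued cells (+MK2, blue), with 95% counting intervals as bars and 1.5-fold as dotted lines. *Irak2* in control cells, at 0.61, is the 1 point past a dotted line.

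The 3 genes whose profile over the 4 libraries was nearest to that of *Irak2*, of 10584 genes whose mean reached 50, were *Heca*, *Ppm1k* and *Rassf4*. Their Euclidean distances on the log2 scale, after centering each gene, were 0.0495, 0.0656 and 0.0975. *Heca* had 450, 653, 324 and 380 normalized counts in the order control UT and IL-1α, then rescued UT and IL-1α. *Ppm1k* had 196, 297, 151 and 178, and *Rassf4* 4073, 6564, 3024 and 3407 in the same order. The comparison rests on 4 values for each gene.

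The receptors that use MyD88 were less uniform than the adaptors, but the lists were not matched in depth. *Il1r1*, *Tlr1* and *Tlr8* had normalized counts of between 25 and 137, against at least 443 for each measured adaptor. Of 16 listed IL-1 family and Toll-like receptor genes, 12 reached a mean of 10. Untreated, 2 were at least 1.5-fold higher in control cells and 1 lower, and after IL-1α 2 were higher and 2 lower, with list medians of 0.15 and -0.07. The shares over all tested genes were 7.33% higher and 10.3% lower untreated, and 8.41% and 11.2% after IL-1α. *Tlr2*, a receptor for bacterial lipoproteins, had 1630 normalized counts in untreated and 9796 in IL-1α-treated control cells, against 1187 and 1651 in rescued cells. Its log2 response was 2.59 (2.51 to 2.66) in the first line and 0.48 (0.37 to 0.58) in the second, so a receptor upstream of the adaptors differed far more than any adaptor. *Il1r1*, the receptor that binds IL-1α, had 63 and 38 against 25 and 29 normalized counts, so its ratios rest on few counts. Its log2 ratio of the lines was 1.30 (0.64 to 2.06) untreated and 0.38 (-0.35 to 1.14) after IL-1α. The log2 response of *Il1r1* was -0.71 (-1.35 to -0.13) in control cells and 0.21 (-0.61 to 1.05) in rescued cells.

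*Tlr8* had 109 and 49 normalized counts in control cells and 66 and 109 in rescued cells, and so moved in opposite directions after IL-1α. *Tlr1* had 88 and 67 against 135 and 137, and *Il18rap*, a subunit of the IL-18 receptor, 1198 and 1245 against 833 and 825.

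Of 13 other adaptors and partners of the complex, 10 were measured, and 1 passed 1.5-fold between the lines after IL-1α, where 8.41% of all tested genes were higher. This was *Ticam1*, which encodes the adaptor TRIF of the MyD88-independent route, with 494 and 603 normalized counts in control cells and 391 and 339 in rescued cells. *Tifa*, a partner of TRAF6, was the 1 gene of this list past 1.5-fold after IL-1α within control cells. Among all tested genes 4.7% were higher and 4.29% lower there. *Tifa* had 466 and 821 normalized counts in control cells against 608 and 614 in the other line. Its log2 response was 0.82 (0.65 to 0.98) and 0.01 (-0.15 to 0.18). *Sarm1* differed by 1.5-fold in its response, as did 12.6% of all tested genes, on normalized counts of between 9 and 12 that were within counting error.

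Downstream of TRAF6, all 16 listed ubiquitin enzymes and kinases were measured, and 1 passed 1.5-fold in each comparison of 2 libraries. It was *Map3k8*, which encodes the kinase TPL2, with 150 and 487 normalized counts in control cells and 85 and 201 in rescued cells. Between the lines, 7.33% of all tested genes were higher and 10.3% lower past this fold untreated, and 8.41% and 11.2% after IL-1α. For the responses the shares were 4.7% higher and 4.29% lower in control cells, and 5.64% in either direction in rescued cells. The log2 response of *Map3k8* was 1.69 (1.43 to 1.97) in the first line and 1.23 (0.87 to 1.62) in the second, higher after IL-1α in both. The medians of this list lay between -0.05 and 0.04 in the 4 comparisons of 2 libraries, beside medians of between 0.01 and 0.03 over all tested genes.

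The inhibitors of the pathway showed the widest responses. All 10 were measured, and 5 were at least 1.5-fold higher after IL-1α in control cells against 2 in rescued cells, with list medians of 0.61 and 0.08. Among all tested genes, 4.7% were higher past this fold in control cells, and 5.64% differed by it in either direction in rescued cells. *Tnfaip3*, which encodes the ubiquitin-editing enzyme A20 that acts on TRAF6, had 147 and 3524 normalized counts in control cells and 1147 and 1207 in rescued cells. It was thus lower before and higher after IL-1α in control cells, with a log2 response of 4.57 (4.35 to 4.83) against 0.07 (-0.04 to 0.19). *Nfkbia*, which encodes IκBα, had 587 and 7794 against 480 and 815 normalized counts, and *Zc3h12a*, which encodes an RNase, 160 and 1590 against 104 and 268. *Tnip1*, an A20 partner, had 1340 and 3296 against 1204 and 1233, and *Tank*, a TRAF-binding inhibitor, 1255 and 2290 against 1530 and 1539.

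The remaining inhibitors past 1.5-fold differed between the lines, and their responses to IL-1α lay within counting error. *Trim30a*, which promotes the degradation of TAB2 and TAB3, had 6 and 6 normalized counts in control cells and 80 and 64 in rescued cells, and *Socs1*, an inhibitor of cytokine signaling, 3 and 3 against 18 and 16. *Tab2* and *Tab3* mRNA stayed within 1.17-fold over all libraries. The degradation concerns the TAB2 and TAB3 proteins, which these libraries do not measure.

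**Figure D5:**
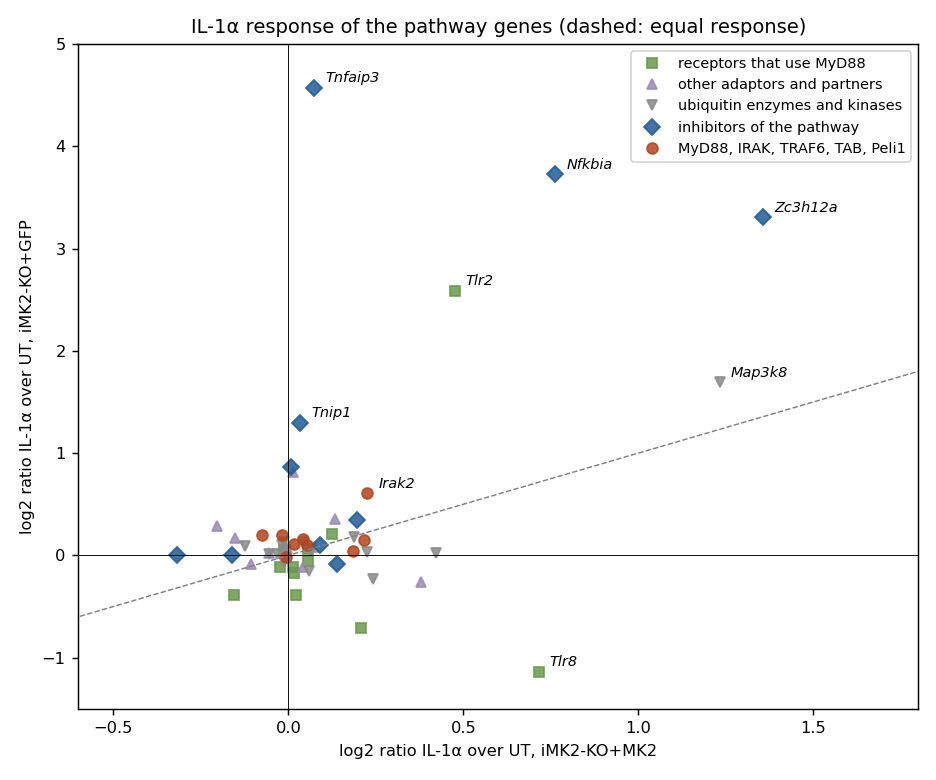
Log2 ratio of normalized counts after IL-1α over untreated in rescued cells (+MK2, x axis) and control cells (+GFP, y axis), 1 point for each measured gene of the 5 lists, with equal responses on the dashed line and the axes on different scales. *Tnfaip3*, *Nfkbia*, *Zc3h12a* and *Tlr2* lie far above the line, whereas the adaptors (circles) lie near the origin with *Irak2* at 0.23 and 0.61.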

How the data were processed

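RNA was sequenced from 4 libraries, 1 for each line and treatment. The authors deposited 1 table with a score for each gene and library, a whole number described in the study as a count normalized with DESeq2. The column names end in the name of salmon's output file. The notes name GRCm38, but 0 of the 10 adaptors share a start or an end with RefSeq genes on GRCm38, so the build of the deposited positions is not known, and coordinates of sites and promoters come from GRCm38 alone. The labels describe poly(A) selection, a stranded kit and paired reads, whereas the study's methods describe single reads of total RNA after ribosomal depletion.

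Samples were grouped by their titles. Log2 ratios used a pseudocount of 1 on the deposited score, with 95% Clopper-Pearson intervals that take the score as reads. The number of reads behind a score is not known, and low scores pile up in steps (440 genes at 5 against 360 at 4 in the IL-1α-treated control library), as rounding after division does. Intervals and floors (3 counts) are approximate and cover counting error only. Genes with a mean of at least 10 formed the background. No count model was used, since the scores are normalized.

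The adaptors, lists, tests and searches were chosen with earlier results of these data known. Named genes were the adaptors, list genes past 1.5-fold in a comparison, *Mapkapk2*, and the 3 nearest profiles of adaptors spanning at least 1 on the log2 scale. Nearest profiles of *Irak3* were left out, since its values lay around the floor. *Ikbkg*, marker genes and genes overlapping or flanking an adaptor were named outside this rule, after their values were seen. Python 3.11.15, numpy 2.4.6, scipy 1.17.1, pandas 2.3.3 and matplotlib 3.10.9 were used. Alternatives were other scalings, pseudocounts, minimum values, folds and read numbers. Medians over all 10 adaptors with values under the floor set to it, and calls beyond counting error under other scalings, were added after the data had been seen. No protein sequences were used here.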

Additional observations from a re-analysis of the deposited data

Results flagged for a closer look

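For 2 adaptors the IL-1α response had opposite signs in the lines. *Traf6* had a log2 response of 0.20 in control and -0.017 in rescued cells, and *Tab3* of 0.20 and -0.076. In each case the second value lay within counting error of 0. Of the pathway genes, *Tlr8* had log2 responses of -1.14 and 0.72, on normalized counts of between 49 and 109, and *Ikbkg*, which encodes the regulatory subunit of the IκB kinases, of -0.23 and 0.24, on between 1593 and 2164. With 1 library for each condition, these differences were not tested against the spread between cultures.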

How the results depend on the processing

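Of 270 single-gene values of the adaptors under the alternatives, 266 stayed inside their counting interval and 4 moved outside it. The 4 were ratios of the lines after IL-1α with scaling to *Gapdh*: *Myd88* 0.17, *Irak1* 0.28, *Traf6* 0.77 and *Tab2* 0.05. Of the ratios beyond counting error, 0 changed sign. Some ratios within counting error did. The untreated *Irak4* ratio of the lines went from 0.014 to -0.044 with scaling to *Gapdh*. The *Peli1* response of rescued cells went from 0.015 to -0.014 with scaling to the upper quartile. At a fold of 2, 0 adaptors passed in the line comparison untreated, in that after IL-1α and in the response of control cells. At a fold of 1.2, 4 passed untreated and 4 after IL-1α, and 2 passed for the difference of responses. The shares of all tested genes past a fold of 1.2 were not computed. Close to it, 23.1% of all tested genes had a log2 ratio of the lines below -0.25 untreated, and 79.0% below 0.25. After IL-1α these shares were 24.0% and 76.6%. Log2 ratios of the lines below -1 were found for 5.09% untreated and 5.40% after IL-1α, and below 1 for 96.5% and 95.8%. For the response of control cells, the share of all tested genes past a fold of 2 was not computed. The response of control cells had 0 adaptors past 1.5-fold with scaling to totals, to *Gapdh* or to the upper quartile, since *Irak2* lies at the threshold. Beyond counting error, the response of control cells had 3 adaptors in place of 5 under the same 3 scalings, and the difference of responses 3 in place of 5 with scaling to totals or *Gapdh*. With the reads taken as 0.5 of the scores, 1 adaptor in place of 3 was beyond counting error in the response of rescued cells, and 2 in place of 5 for the difference of responses. For that difference the share of all tested genes beyond counting error was not computed. With any value above 0 admitted, the share of all genes past 1.5-fold became 36.3% untreated, 37.3% after IL-1α, 29.4% and 27.3% for the responses of control and rescued cells, and 40.0% for their difference. At a mean of at least 50, these shares became 12.4%, 14.3%, 4.45%, 1.58% and 6.42%, in the same order. No paired analysis was possible because each condition has 1 library, and for the same reason no library could be left out. Scores of a few counts, such as those of *Irak3*, do not allow a fold.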
